A study of Mus musculus with 10 samples.

Results

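Mediator is the large coactivator complex that connects DNA-bound transcription factors to RNA polymerase II. Its genes were taken here as the symbols of the Med series together with Cdk8, Cdk19 and Ccnc, provided that they reached 10 counts in 3 or more libraries. This rule gave 33 genes of the 39769 symbols in the table, and all 33 symbols that matched by name also met the count minimum. They comprised 7 head, 9 middle and 5 tail subunits, the scaffold Med14, 4 subunits that link head and tail (Med27 to Med30) and 7 genes of the kinase module. Their RNA was measured by poly-A RNA sequencing in 10 mouse libraries, and all 33 entered the tests among 15617 genes. Ptch denotes 4 libraries of cerebellum from Ptch+/- mice, of which Ptch 1 and Ptch 2 were taken at 4 months of age and Ptch 3 and Ptch 4 at 2 months. NKP denotes 3 libraries labelled medulloblastoma from Nestin-Cre Kmt2dfl/+ Ptch+/- mice, all at 4 months. AKP denotes 3 libraries labelled medulloblastoma from AtohI-Cre Kmt2dfl/+ Ptch+/- mice, where AKP 3 was taken at 4 months and AKP 1 and AKP 2 at 2 months. Every group thus carried the Ptch heterozygosity, and no library came from wild-type mice. NKP and AKP, called tumour groups here after their labels, kept 1 Kmt2d copy without a floxed allele. Nestin-Cre acts in neural progenitors broadly and an Atoh1-driven Cre in granule neuron precursors, so the recombined cells differ between the tumour groups.

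The head and middle of Mediator contact RNA polymerase II, the tail receives activators, and Med14 spans the modules. The kinase module, made of Cdk8 or its paralog Cdk19 with cyclin C, Med12 or Med12l and Med13 or Med13l, binds the rest of the complex reversibly and controls its access to the polymerase. In the cerebellum, granule neuron precursors divide under Sonic hedgehog signalling through Gli factors, which Ptch1 restrains, and Kmt2d is a histone methyltransferase that acts at enhancers, where Mediator is also found.

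The promoters of the 4 Mediator genes that passed the test in AKP against Ptch are shown because these are the genes on which the results turn. Each runs from 250 bases before to 50 bases after the start site annotated for its promoter in GRCm38.p6, 5′ to 3′ on the gene's strand. This start need not be the outer end of the gene. Capitals mark GC boxes (GGGCGG on either strand).
Med12: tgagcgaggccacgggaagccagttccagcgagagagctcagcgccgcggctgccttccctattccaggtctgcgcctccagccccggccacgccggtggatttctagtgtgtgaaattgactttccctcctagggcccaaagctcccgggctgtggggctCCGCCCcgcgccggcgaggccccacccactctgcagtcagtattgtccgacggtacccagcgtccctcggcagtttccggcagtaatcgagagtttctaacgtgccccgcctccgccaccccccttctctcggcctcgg
Med13l: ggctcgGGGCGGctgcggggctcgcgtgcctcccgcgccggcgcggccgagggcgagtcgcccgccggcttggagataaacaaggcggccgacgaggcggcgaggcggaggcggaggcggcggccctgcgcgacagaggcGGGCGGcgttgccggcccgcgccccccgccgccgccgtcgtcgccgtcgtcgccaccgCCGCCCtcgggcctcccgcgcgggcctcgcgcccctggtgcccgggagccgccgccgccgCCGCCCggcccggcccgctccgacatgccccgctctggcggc
Med25: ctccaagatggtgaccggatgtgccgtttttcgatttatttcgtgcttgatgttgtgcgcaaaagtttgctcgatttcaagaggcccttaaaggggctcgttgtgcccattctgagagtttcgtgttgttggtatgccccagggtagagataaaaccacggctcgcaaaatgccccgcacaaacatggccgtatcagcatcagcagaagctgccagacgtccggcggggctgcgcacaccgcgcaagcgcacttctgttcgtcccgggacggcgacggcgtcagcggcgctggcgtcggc
Med31: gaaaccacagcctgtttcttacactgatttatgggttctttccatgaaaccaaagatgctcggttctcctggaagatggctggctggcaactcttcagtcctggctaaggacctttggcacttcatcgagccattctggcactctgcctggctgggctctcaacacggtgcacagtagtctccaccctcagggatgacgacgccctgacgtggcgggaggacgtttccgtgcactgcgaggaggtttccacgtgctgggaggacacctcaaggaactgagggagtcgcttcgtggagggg
The Med12 window lies at chrX:101273841-101274140 on the plus strand and the Med13l window at chr5:118560469-118560768 on the plus strand. The Med25 window lies at chr7:44892375-44892674 and the Med31 window at chr11:72215543-72215842, both on the minus strand. The Med12 and Med31 windows hold the outer start of the gene. Those of Med13l and Med25 lie inside the bounds of their genes, which begin at 118560330 for Med13l and end at 44892705 for Med25. Which start is used in these cells was not tested. G and C made up 84.7% of the Med13l window, 66.3% of that of Med12, 57.7% of that of Med25 and 56.7% of that of Med31. The Med13l window held 4 GC boxes and that of Med12 held 1, while the other two held none. Both strands were also searched for CCAAT, which is the CCAAT box, for TATAAA, the core of the TATA box, for CCGGAAG, a motif of ETS factors, and for GACCACCCA, the motif of GLI factors. None of these occurred in the 4 windows. Of the 33 Mediator genes, 28 had a promoter in the table. A GC box was found in 18 of these 28, against 35.7% of 32851 promoters of the same length, a CCAAT box in 11 (37.4% of all), an ETS motif in 7 (8.86%), a TATA box in 3 (13.6%) and the GLI motif in 0 (0.253%). The ETS motif was in the promoters of Med4, Med6, Med14, Med15, Med17, Med18 and Med19.

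Several libraries departed from their labels. Kmt2d, the targeted gene, stood at 68.4, 57.3, 56.3 and 52.6 CPM (counts relative to the library total, with totals scaled by TMM) in Ptch 1 to 4, at 33.2, 46.9 and 58.0 CPM in NKP 1 to 3, and at 34.3, 41.3 and 43.6 CPM in AKP 1 to 3. NKP 1, NKP 2 and the 3 AKP libraries lay below every Ptch library, whereas the library labelled NKP 3 lay within the Ptch range. The edgeR difference was -0.34 on the log2 scale in NKP (adjusted p = 0.307) and -0.56 in AKP (adjusted p = 0.0650; 0.0201 by DESeq2). After a correction for transcript length and GC content the AKP difference was -0.12 (edgeR adjusted p = 0.708). The whole gene was counted, so reads from outside the floxed part and from cells without Cre are included. Sex-linked genes did not match the labelled sex of 4 libraries (Ptch 1, Ptch 3, NKP 3 and AKP 3), and the summed level of Y-linked genes was under 5 CPM in Ptch 1 and Ptch 2 alone (0.385 and 0.465 CPM, against 55.0 to 99.2 CPM elsewhere). NKP 2, labelled male, gave a mixed signal, with 74.8 CPM of Xist beside 68.4 CPM of Y-linked genes, where Xist in the other libraries with Y-linked counts above that level ran from 0.433 to 15.0 CPM. The summed level of 10 mitosis genes ran from 103 to 337 CPM in Ptch, from 5.03 to 46.3 CPM in NKP and from 6.16 to 209 CPM in AKP. Atoh1, which marks granule neuron precursors, stood at 14.8, 16.4, 6.92 and 5.71 CPM in Ptch 1 to 4. It had no counts in NKP 1 and AKP 1 and stood at 0.221 CPM in NKP 2, although these libraries are labelled medulloblastoma. NKP 3 had 3.67 CPM, and AKP 2 and AKP 3 had 5.77 and 5.45 CPM. Summed over 8 precursor genes, Ptch (944 to 1161 CPM) lay above NKP (720 to 792 CPM) and AKP (737 to 861 CPM). Zic1 alone gave 460 to 712 CPM of these sums. Taken singly, 7 of the 8 genes were lower in each NKP library than in each Ptch library, and 0 were so in AKP. Barhl1, for example, stood at 13.0, 101 and 84.0 CPM in AKP 1 to 3 and at 132, 146, 57.1 and 54.1 CPM in Ptch 1 to 4. The sum of 6 hindbrain neuron genes was 85.5 and 70.6 CPM in AKP 2 and AKP 3, and 3.95 CPM in AKP 1. It ran from 23.5 to 29.3 CPM in Ptch and from 3.19 to 14.4 CPM in NKP. The sum of 6 mature granule neuron genes was 3706, 1989 and 2387 CPM in AKP 1 to 3, 2644 to 3237 CPM in Ptch and 3216 to 3753 CPM in NKP. That of 5 Purkinje cell genes was 5011, 2646 and 3185 CPM in AKP 1 to 3, 3177 to 4491 CPM in Ptch and 4094 to 5370 CPM in NKP. All 6 oligodendrocyte markers were higher in each AKP library than in each Ptch library, and 5 of the 6 were so in NKP. Their summed level was 8566 to 10712 CPM in AKP, 7383 to 11889 CPM in NKP and 5844 to 7184 CPM in Ptch. The summed level of 5 red blood cell genes was 1740 to 2232 CPM in AKP and 710 to 814 CPM in Ptch, while NKP (780 to 2483 CPM) overlapped with both. In bulk RNA, fewer cells of a type and less RNA per cell cannot be told apart, and the part of these differences in the Mediator values was not tested. Library names below are those of the labels. Totals ran from 12300430 to 19348991 counts, and single Mediator values from 39 to 2913 counts.

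Set against the length of each gene's longest transcript, Mediator RNA spanned more than an order of magnitude. Med9, a middle subunit, had the highest mean over the 10 libraries with 24.3 CPM per kilobase, followed by Med30 with 22.5 and the kinase Cdk19 with 21.6. Their ranges over libraries overlapped (20.3 to 28.6 for Med9, 19.9 to 30.7 for Med30 and 16.4 to 25.5 for Cdk19), so these neighbours were not separated. The lowest were the head subunit Med18 with 1.95, Med12l with 2.53, Med13l with 2.74, Med26 with 3.35 and Med12 with 3.59 CPM per kilobase. Long genes of the kinase module thus stood near the bottom and Cdk19 near the top, with its paralog Cdk8 at 5.50 and their partner cyclin C (Ccnc) at 7.77. The scaffold Med14 stood at 4.96. In the head, Med6, Med8, Med11 and Med22 ranged from 16.1 to 20.3, Med17 stood at 8.22 and Med20 at 5.51. In the middle, Med19, Med21, Med31 and Med4 ranged from 14.7 to 19.9, Med7 stood at 9.56, Med10 at 6.90 and Med1 at 3.92. The remaining linking subunits were Med29 with 20.96, Med28 with 18.9 and Med27 with 13.1, and the tail subunits were Med25 with 15.4, Med24 with 14.7, Med15 with 13.9, Med16 with 9.77 and Med23 with 5.53. Med12, Med13 and Med13l varied most between libraries, with a highest value 2.09, 2.06 and 1.93 times the lowest, and Med17 varied least (1.22 times). The longest annotated transcript need not be the one used in these cells, so this order is approximate.

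**Figure D1:**
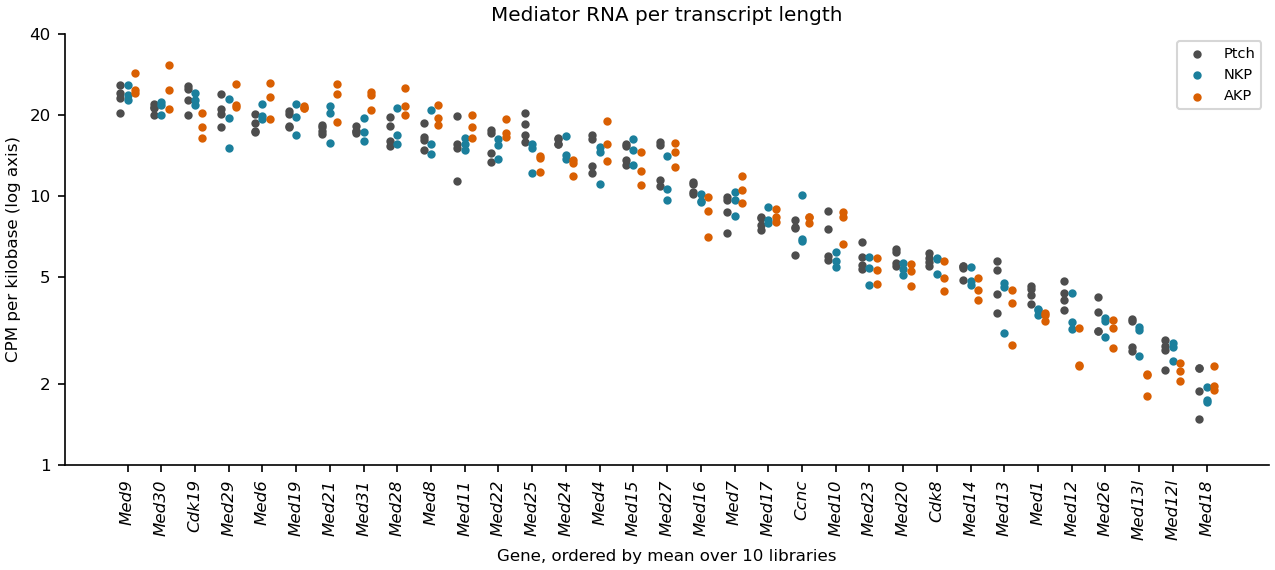
Level of each Mediator gene in CPM per kilobase of its longest transcript (log axis), 1 point per library, coloured by group and ordered by the mean over 10 libraries. Levels run from 24.3 for Med9 to 1.95 for Med18, and the AKP points of Med12 and Med13l lie under those of Ptch.

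The largest differences of AKP against Ptch lay in the kinase module. Med12 and Med13l fell, and 6 of the 7 genes of the module had a log2 difference below 0, with a median of -0.35 against -0.02 over all tested genes and -0.21 over the 3391 other genes with transcripts longer than 5000 bases. Med12 is the subunit that activates the module's kinase, and Med13l is a paralog of Med13, which joins the module to the core of Mediator.

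Med12 (X chromosome, 101274091 to 101298934) stood at 33.6, 30.3, 28.4 and 26.1 CPM in Ptch 1 to 4, at 22.2, 23.5 and 30.2 CPM in NKP 1 to 3, and at 16.4, 16.1 and 22.4 CPM in AKP 1 to 3. Every AKP library lay below every Ptch library, and AKP 3 lay within the NKP range. The group means were 29.6 ± 3.17 (SD, n = 4), 25.3 ± 4.28 (n = 3) and 18.3 ± 3.57 CPM (n = 3). Relative to Ptch, Med12 in AKP fell by 38.1%, and its log2 fold change was -0.69 (SE 0.152, edgeR adjusted p = 0.0279). Med12 is X-linked and was highest in Ptch 1 and Ptch 2, the libraries low in Y-linked genes. Without these, the difference was -0.57 with an edgeR adjusted p of 0.150. Ptch 1 and Ptch 2 were also the Ptch libraries taken at 4 months. Their summed mitosis genes were 337 and 336 CPM, against 110.5 and 103 CPM in Ptch 3 and Ptch 4. Sex, age and cell make-up therefore cannot be told apart here. Med14, X-linked too, was lower in Ptch 1 (33.9 CPM) than in the other Ptch libraries.

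Med13l (chromosome 5, 118560330 to 118765438) stood at 25.5, 24.6, 31.8 and 32.3 CPM in Ptch 1 to 4, at 23.6, 29.3 and 30.2 CPM in NKP 1 to 3, and at 20.0, 16.7 and 20.3 CPM in AKP 1 to 3. The AKP libraries lay below all Ptch and all NKP libraries, and NKP lay among the Ptch libraries except for NKP 1. Med13l in AKP fell by 33.5% against Ptch (-0.59 on the log2 scale, SE 0.139, edgeR adjusted p = 0.0334). Its paralog Med13 stood at 38.8, 45.5, 60.4 and 55.8 CPM in Ptch 1 to 4, at 32.6, 50.1 and 48.2 CPM in NKP 1 to 3 and at 41.9, 29.3 and 46.9 CPM in AKP 1 to 3. Its groups overlapped, and its log2 difference in AKP of -0.35 had an SE of 0.206 and an adjusted p of 0.323.

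Cdk19, a kinase of the module, stood at 131, 116, 148 and 144 CPM in Ptch 1 to 4, at 126, 131 and 140 CPM in NKP 1 to 3, and at 118, 105 and 95.1 CPM in AKP 1 to 3. AKP 1 lay above Ptch 2, so the AKP and Ptch groups overlapped, while all AKP libraries lay below all NKP libraries. The log2 difference of -0.35 (SE 0.104) did not pass in edgeR (adjusted p = 0.0617) and passed in DESeq2 (0.0244) and in edgeR without AKP 1 (-0.43, adjusted p = 0.0295). Cdk8 stood at 22.8, 23.9, 21.4 and 22.1 CPM in Ptch 1 to 4, at 19.9, 22.8 and 22.7 CPM in NKP and at 22.2, 17.2 and 19.3 CPM in AKP. AKP 1 lay within the Ptch range and AKP 2 and AKP 3 below it, with a log2 difference of -0.20 (edgeR adjusted p = 0.285).

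Ccnc, the cyclin that both kinases bind, was the only gene of the module with a difference above 0 in AKP. It stood at 21.0, 26.3, 28.4 and 26.8 CPM in Ptch 1 to 4, at 24.1, 35.2 and 23.6 CPM in NKP and at 28.9, 27.6 and 29.0 CPM in AKP. The difference of 0.15 (edgeR adjusted p = 0.569) was small beside the spread in Ptch and NKP. Med12l, the paralog of Med12, stood at 24.8, 30.4, 29.4 and 31.9 CPM in Ptch 1 to 4, at 26.8, 30.2 and 31.2 CPM in NKP and at 26.4, 24.5 and 22.6 CPM in AKP. Only AKP 1 overlapped with Ptch, above Ptch 1, and the log2 difference of -0.25 did not pass (edgeR adjusted p = 0.187). Summed over the 7 genes, the kinase module took 297 to 348 CPM in Ptch, 275 to 326 CPM in NKP and 236 to 273 CPM in AKP.

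**Figure D2:**
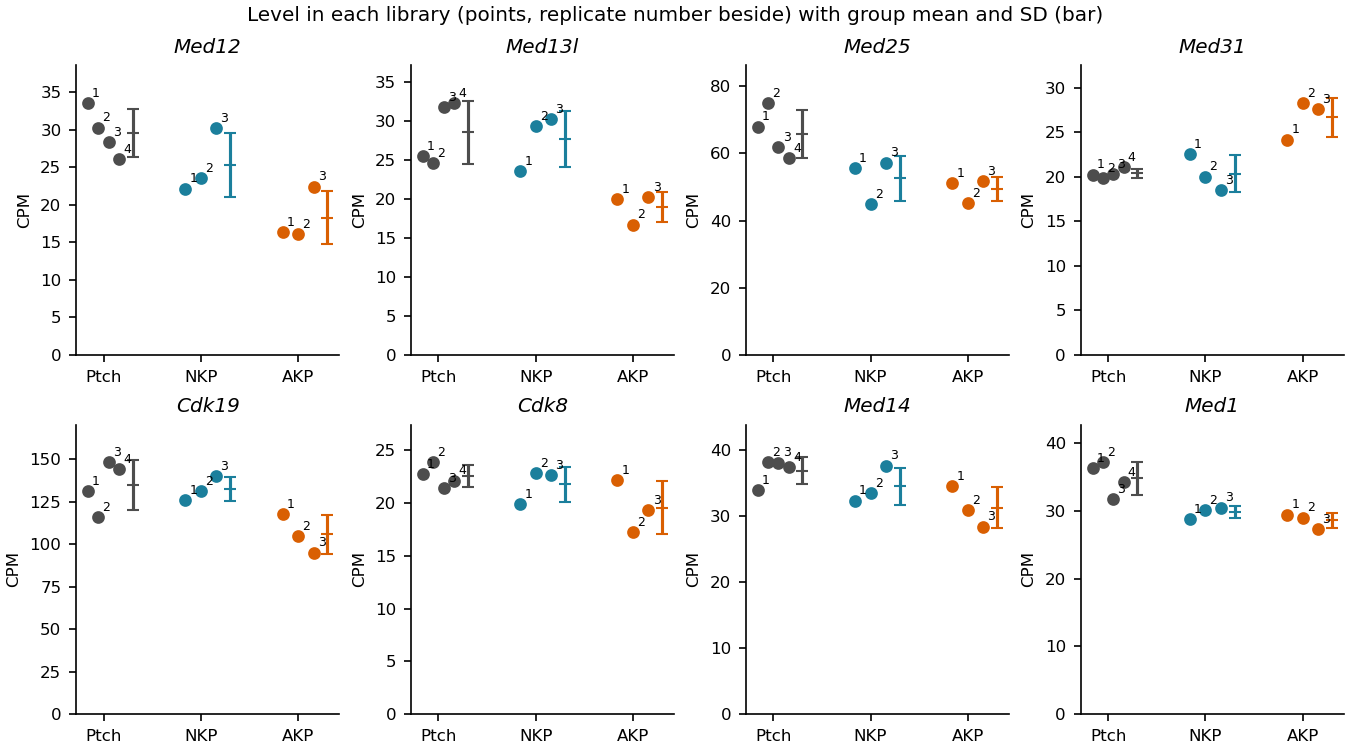
CPM of 8 Mediator genes in each library (points, with the replicate number beside) and the group mean with its SD (bar), on axes that start at 0. The AKP points of Med12, Med13l and Med25 lie below all Ptch points and those of Med31 above them, while the Cdk8 and Med14 points overlap.

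In the tail, which receives activators, all 5 differences of AKP against Ptch were below 0. Their median was -0.31, against -0.02 over all tested genes. Med25, a target of several activators, was the tail subunit that passed. It stood at 68.0, 75.0, 62.0 and 58.7 CPM in Ptch 1 to 4, at 55.6, 45.0 and 57.3 CPM in NKP 1 to 3, and at 51.2, 45.2 and 51.7 CPM in AKP 1 to 3. All 6 NKP and AKP libraries lay below all Ptch libraries, and NKP and AKP overlapped. Med25 (chromosome 7, 44876765 to 44892705) in AKP fell by 25.1% (log2 fold change -0.42, SE 0.113, edgeR adjusted p = 0.0477). Med24 and Med16 had AKP libraries below all Ptch libraries too and were named after their values were seen. Med24 ranged from 71.0 to 75.3 CPM in Ptch and from 54.0 to 62.1 CPM in AKP (log2 difference -0.31, edgeR adjusted p = 0.0618; 0.0283 by DESeq2). Med16 ranged from 32.4 to 35.9 CPM in Ptch and from 22.4 to 31.6 CPM in AKP (-0.33, edgeR adjusted p = 0.0976; 0.0371 without AKP 1). The tail sum took 237 to 264 CPM in Ptch, 214 to 250 CPM in NKP and 184 to 225 CPM in AKP.

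The middle, head and linking subunits lay mostly on the other side of 0. Their medians below stand beside -0.02 over all tested genes. Over the 3190 genes outside Mediator with transcripts under 2000 bases the median was 0.24. Not all of these subunits have transcripts that short. Med31, a small subunit of the middle, was the only Mediator gene that rose. It stood at 20.2, 19.9, 20.3 and 21.1 CPM in Ptch 1 to 4, at 22.6, 20.0 and 18.5 CPM in NKP 1 to 3, and at 24.2, 28.3 and 27.6 CPM in AKP 1 to 3. The AKP libraries lay above all others, and the Ptch libraries lay close together (20.4 ± 0.518 CPM, SD, n = 4). Med31 (chromosome 11, 72211724 to 72215592) rose by 31.0% in AKP (log2 fold change 0.39, SE 0.106, edgeR adjusted p = 0.0491).

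Of the 9 middle subunits, 7 had a difference above 0 in AKP, with a median of 0.15. Med1, the subunit bound by nuclear receptors, went the other way, with 36.2, 37.1, 31.7 and 34.2 CPM in Ptch 1 to 4 against 29.4, 29.0 and 27.3 CPM in AKP 1 to 3 (log2 difference -0.28, edgeR adjusted p = 0.0818). Med21, which pairs with Med7 in the core of the middle, ranged from 29.1 to 31.4 CPM in Ptch and from 32.2 to 44.6 CPM in AKP (0.37, edgeR adjusted p = 0.0961). Med19 ranged from 37.2 to 42.5 CPM in Ptch and from 43.5 to 44.5 CPM in AKP (0.15, edgeR adjusted p = 0.403), and Med1, Med19 and Med21 are named here for groups that did not overlap, a choice made after their values were seen. The middle sum took 247 to 280 CPM in Ptch, 240 to 274 CPM in NKP and 282 to 305 CPM in AKP, so the AKP libraries stood above both other groups.

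In the head, which contacts the polymerase, 6 of 7 differences of AKP against Ptch were above 0, with a median of 0.18, and 0 passed. Med6 had the smallest p. It stood at 21.3, 18.4, 19.7 and 18.3 CPM in Ptch 1 to 4, at 23.3, 20.9 and 20.4 CPM in NKP and at 24.7, 27.8 and 20.4 CPM in AKP. AKP 3 lay within the Ptch range, and the difference of 0.32 did not pass (SE 0.122, edgeR adjusted p = 0.118). Med20 was the head subunit with a difference below 0 (-0.20, edgeR adjusted p = 0.252) and is named after its value was seen.

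The 4 linking subunits all had differences above 0 in AKP, with a median of 0.21, and 0 passed. Med28 stood at 89.6, 83.1, 72.8 and 69.9 CPM in Ptch 1 to 4, at 96.4, 76.9 and 70.9 CPM in NKP and at 91.2, 114 and 98.5 CPM in AKP. Its AKP libraries lay above the Ptch libraries, by little for AKP 1 against Ptch 1, and the difference of 0.36 did not pass (SE 0.124, edgeR adjusted p = 0.0913). The scaffold Med14 (X chromosome) stood at 33.9, 38.2, 38.1 and 37.5 CPM in Ptch 1 to 4, at 32.4, 33.5 and 37.7 CPM in NKP and at 34.5, 31.0 and 28.4 CPM in AKP. Ptch 1 stood apart from the other 3 Ptch libraries and below AKP 1, and the log2 difference in AKP was -0.24 (edgeR adjusted p = 0.159).

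**Figure D3:**
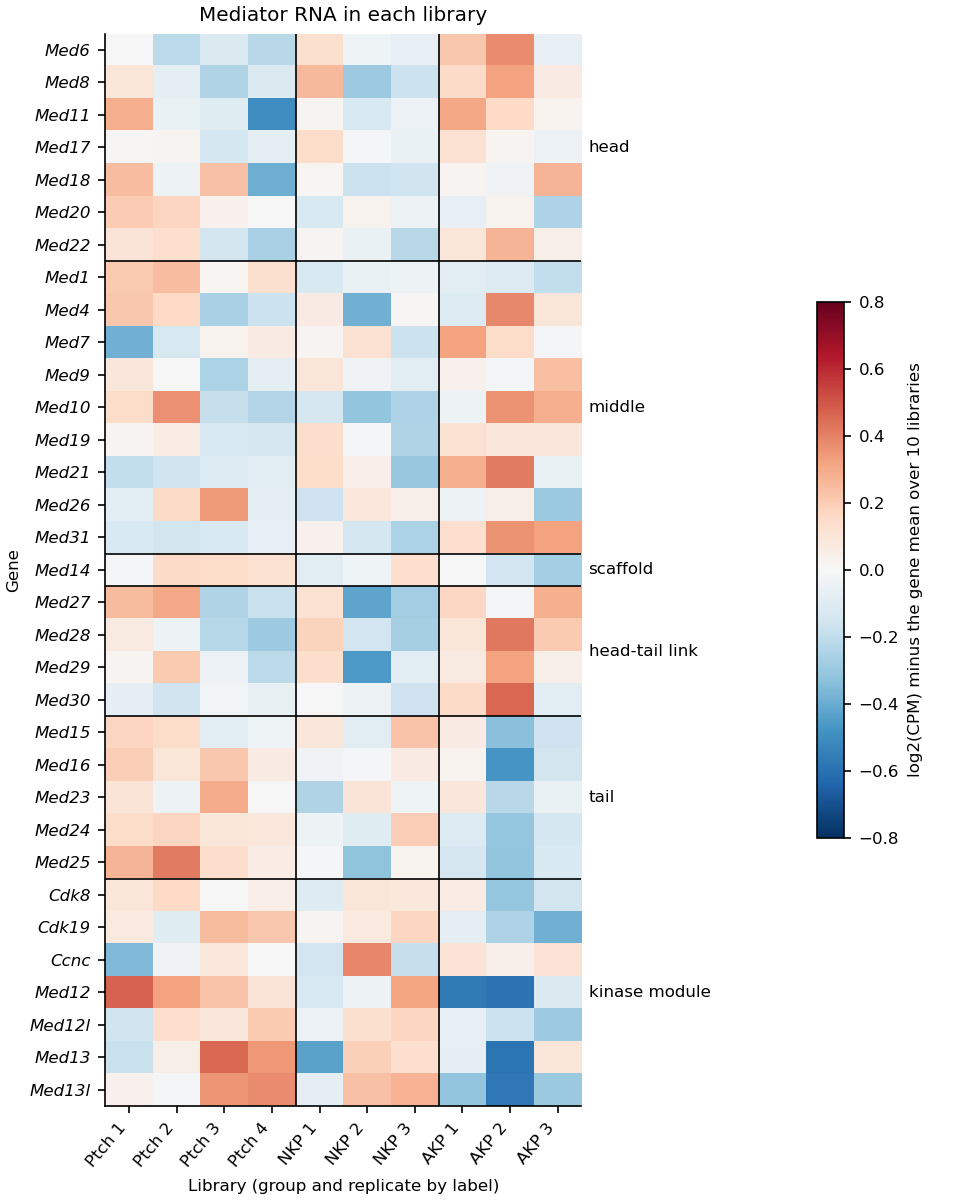
log2 CPM of the 33 Mediator genes in each of the 10 libraries, minus each gene's mean over the libraries, with genes ordered by module and horizontal lines between modules. AKP 2 shows the widest split, with mostly blue kinase module and tail genes and mostly red head, middle and linking genes. Med1 and Ccnc are among the exceptions. NKP 1 shows red Med6 and Med8 beside a blue Med13.

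Counted over all 33 genes, 4 passed in AKP against Ptch in edgeR (12.1%), 3 lower and 1 higher, against 5.68% of the 15617 tested genes, of which 2.30% were lower and 3.38% higher. An unadjusted p under 0.05 was reached by 14 of the 33, against 25.1% of all genes. DESeq2 called 6 (the 4 above with Cdk19 and Med24), against 12.1% of all genes. The AKP and Ptch libraries did not overlap for 10 of the 33 (4 higher and 6 lower in AKP), against 24.8% of all genes. The 1 higher call of 33 was near the share over all genes, and the other counts are too small to read a difference from them. Of all genes called, 59.5% were higher in AKP, and under upper quartile scaling 74.5%. Under that scaling Med25 did not pass (edgeR adjusted p = 0.0561), and the directions of the 4 genes were kept. The summed Mediator RNA overlapped between groups, at 1170 to 1234 CPM in Ptch, 1138 to 1179 CPM in NKP and 1140 to 1189 CPM in AKP, and the median log2 difference of the 33 genes was 0.08.

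**Figure D4:**
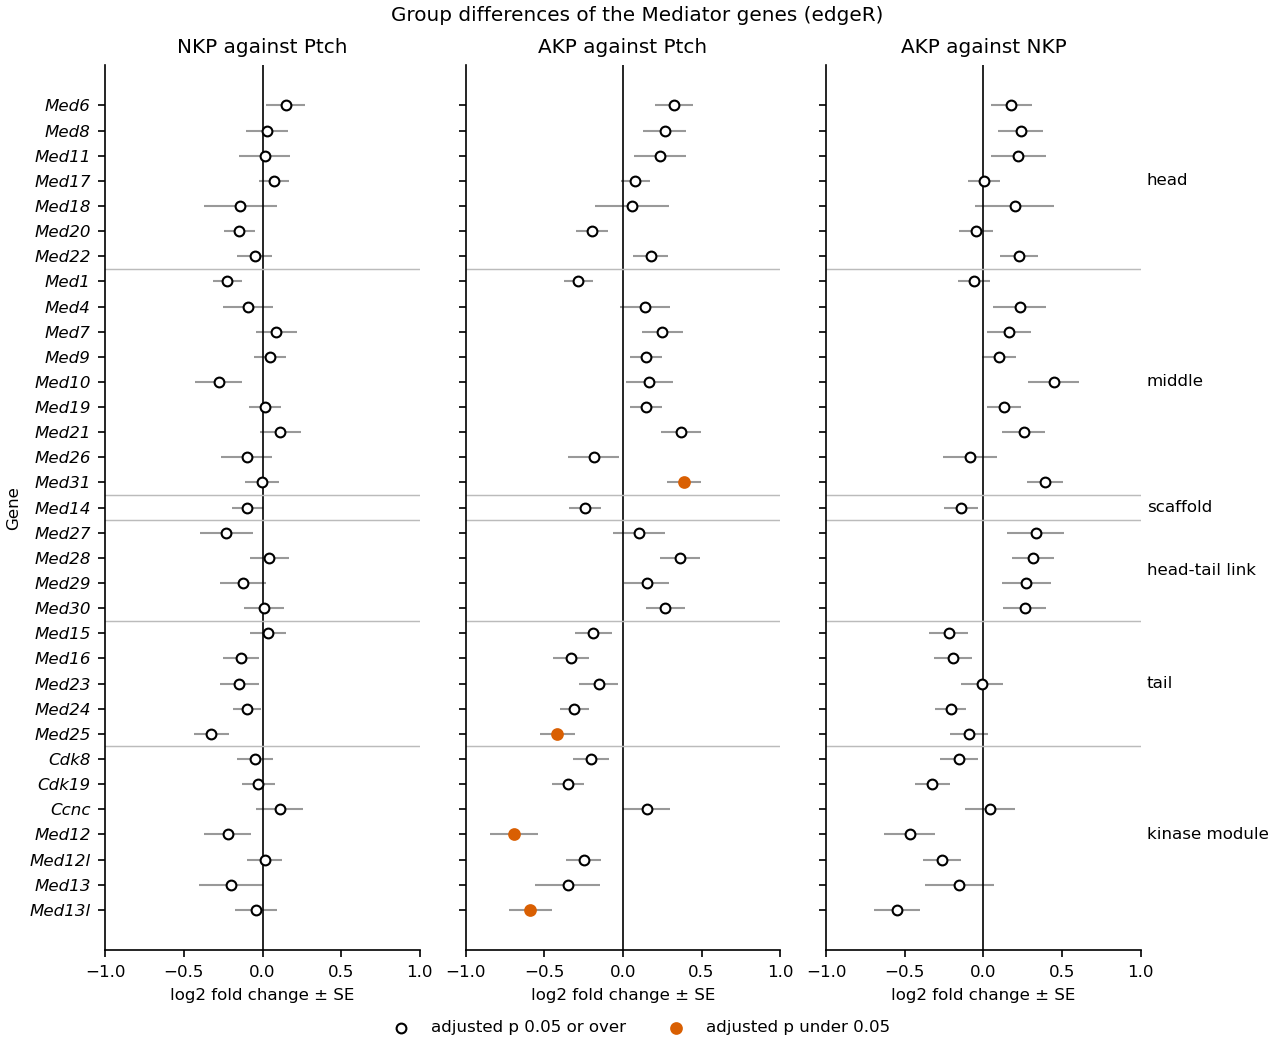
log2 fold change with its SE for each Mediator gene in the 3 comparisons (edgeR, 10 libraries in 1 fit), ordered by module. Filled points have an adjusted p under 0.05, which 4 genes reach in AKP against Ptch (Med31, Med25, Med12 and Med13l) and none reaches in the other comparisons.

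The 4 calls rested on few libraries, as did the calls over all genes. Of all tested genes 887 passed in AKP against Ptch. That number was 1 without Ptch 1, 1 without Ptch 2, 321 without Ptch 3, 183 without Ptch 4 and 1 without AKP 2. For Med12, the edgeR adjusted p was 0.0819 without Ptch 1, 0.0712 without Ptch 2, 0.0502 without Ptch 3, 0.135 without AKP 2 and 0.0534 without AKP 3. For Med13l it was 0.0681, 0.0635, 0.0684 and 0.0794 without Ptch 1, 2, 3 and 4, 0.150 without AKP 2 and 0.0839 without AKP 3. For Med25 it was 0.115, 0.124, 0.0681 and 0.0648 without Ptch 1, 2, 3 and 4, 0.0523 without NKP 3, 0.187 without AKP 2 and 0.109 without AKP 3. For Med31 it was 0.107, 0.101, 0.0884 and 0.0791 without Ptch 1, 2, 3 and 4, 0.0621 without NKP 2, 0.189 without AKP 2 and 0.142 without AKP 3. The sizes moved less, from -0.86 to -0.60 for Med12, from -0.64 to -0.50 for Med13l, from -0.46 to -0.34 for Med25 and from 0.35 to 0.45 for Med31. Without the 4 libraries against their sex label 0 Mediator genes passed, as did 0 of all 15615 genes tested in that fit, with differences of -0.79, -0.63, -0.46 and 0.36 for Med12, Med13l, Med25 and Med31.

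The Mediator differences of AKP followed transcript length. All 9 Mediator genes with a longest transcript over 5000 bases had a log2 difference below 0 in AKP against Ptch, and all 10 with one under 2000 bases had a difference above 0. The kinase module and Med14 hold 6 of the long genes (Cdk19, Med12, Med12l, Med13, Med13l and Med14), and the short genes lie in the head, the middle and the link. Over the 33 genes, Spearman's rho between transcript length and log2 difference was -0.71 in AKP against Ptch, -0.68 in AKP against NKP and -0.35 in NKP against Ptch. Over the 14897 other tested genes with a transcript length it was -0.48, -0.40 and -0.12. These are descriptions across genes that share the same libraries, and genes are not independent replicates.

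The same trend was seen library by library. In each library the median deviation of long genes from their mean over libraries, minus that of short genes, (3391 other genes over 5000 bases, 1816 under 1500 bases) was 0.15, 0.08, 0.22 and 0.28 on the log2 scale in Ptch 1 to 4. In NKP 1 to 3 it was -0.20, 0.20 and 0.23, and AKP 1 to 3 had -0.22, -0.50 and -0.27. For the Mediator genes, long against under 2000 bases, it was 0.02, 0.20, 0.34 and 0.28 in Ptch, -0.23, 0.21 and 0.29 in NKP, and -0.22, -0.54 and -0.30 in AKP. NKP 1 thus lay with the AKP libraries in both measures, and AKP 2 was the lowest in both.

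After each library was corrected for its trends with length and GC content of the transcripts, 0 Mediator genes passed in AKP against Ptch, and 14 of all 14930 genes tested did. Med12 stood at -0.47 (edgeR adjusted p = 0.113), Med13l at -0.32 (0.185), Med25 at -0.33 (0.112) and Med31 at 0.12 (0.555). The median of the kinase module moved from -0.35 to -0.22 and that of the tail from -0.31 to -0.19. The medians of the head and the link changed sign, from 0.18 to -0.03 and from 0.21 to -0.07, and that of the middle moved from 0.15 to 0.03. Of the long Mediator genes 8 of 9 stayed below 0, and of the short ones 4 of 10 stayed above 0. What gave rise to the length trend was not tested.

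**Figure D5:**
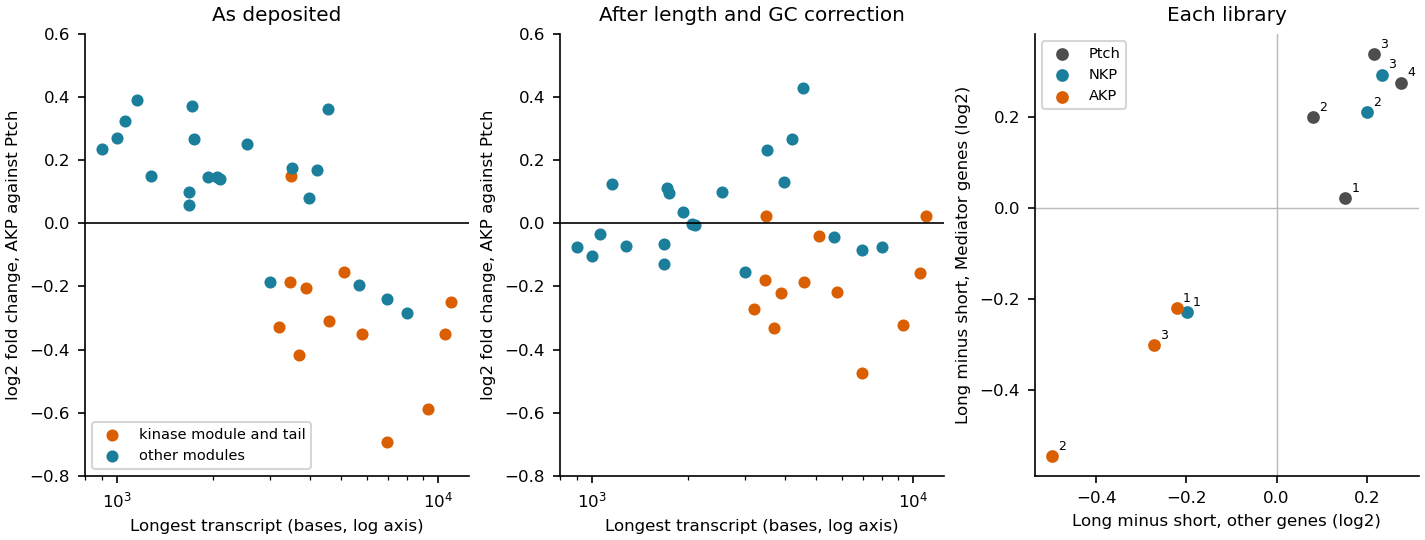
log2 fold change of AKP against Ptch of the 33 Mediator genes by the length of their longest transcript (log axis), before (left) and after (middle) correction for length and GC content, and the median of long minus short genes in each library for Mediator and for other genes (right). The downward trend at left (Spearman's rho -0.71) is weaker after correction (-0.24), and the 3 AKP libraries and NKP 1 lie below 0 on both axes at right.

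In NKP against Ptch, 0 of the 33 Mediator genes passed in edgeR, as 0 of all tested genes did (0%), and 0 passed in DESeq2, which called 2.66% of all genes. An unadjusted p under 0.05 was reached by 2 Mediator genes, Med25 and Med1, against 17.0% of all genes. These were also the 2 genes whose NKP and Ptch libraries did not overlap, with NKP lower, against 15.9% of all genes in either direction. Both counts lay below the background. Med25 in NKP had a log2 difference of -0.33 (SE 0.112, edgeR adjusted p = 0.218) and Med1, at 28.8, 30.1 and 30.4 CPM in NKP 1 to 3, one of -0.22 (SE 0.0923, edgeR adjusted p = 0.250). With age as a covariate, Med25 passed (-0.42, edgeR adjusted p = 0.0483).

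No gene of the kinase module passed in NKP. Med12 differed by -0.22 (edgeR adjusted p = 0.456; -0.14 without NKP 1 and -0.37 without NKP 3), Med13 by -0.20 (0.642), Cdk8 by -0.05 (0.860), Med13l by -0.04 (0.906), Cdk19 by -0.03 (0.920), Med12l by 0.01 (0.966) and Ccnc by 0.11 (0.732). For every gene of the module but Med12 the difference was smaller than its SE. The smallest p in the head belonged to Med20 (-0.15, adjusted p = 0.466) and in the link to Med27 (-0.23, adjusted p = 0.492), both by edgeR, and Med14 differed by -0.10 (adjusted p = 0.641). The median over the 33 genes was -0.05, against 0.01 over all tested genes. NKP and AKP were compared with the same 4 Ptch libraries, so their differences share those controls. Side by side, Med12 stood at -0.22 in NKP and -0.69 in AKP, Med13l at -0.04 and -0.59, Med25 at -0.33 and -0.42, and Med31 at -0.00 and 0.39.

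NKP and AKP were compared directly, which leaves the Ptch libraries out of the difference. In AKP against NKP, 0 of the 33 Mediator genes passed in edgeR, where 0.00640% of all genes (1 gene, Nptxr) did. An unadjusted p under 0.05 was reached by 7 of them, against 16.9% of all genes, and DESeq2 called 1, Med13l (adjusted p = 0.0490), against 1.12% of all genes. The largest of the kinase module differences was that of Med13l, at -0.55 (SE 0.147), followed by Med12 at -0.47 (SE 0.161) and Cdk19 at -0.32 (SE 0.110), each with an edgeR adjusted p of 0.228. Med12l differed by -0.26 (edgeR adjusted p = 0.293), Cdk8 by -0.16 (0.512), Med13 by -0.15 (0.749) and Ccnc by 0.04 (0.914). In the middle, Med31 differed by 0.39 (SE 0.114, edgeR adjusted p = 0.228), and in the scaffold Med14 differed by -0.14 (0.498).

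The smallest p of the head belonged to Med22 (0.23, adjusted p = 0.348), of the link to Med28 (0.32, adjusted p = 0.268) and of the tail to Med24 (-0.21, adjusted p = 0.298), all by edgeR. The AKP and NKP libraries did not overlap for 8 genes, 4 higher in AKP (Med10, Med11, Med22 and Med31) and 4 lower (Cdk19, Med12l, Med13l and Med24), against 16.2% of all genes in either direction. Med10, named after its values were seen, stood at 25.9, 22.9 and 24.0 CPM in NKP 1 to 3 and at 27.7, 36.6 and 34.9 CPM in AKP 1 to 3, with the AKP libraries above (log2 difference 0.45, edgeR adjusted p = 0.233). Without AKP 1, 3 Mediator genes passed, Med31 (adjusted p = 0.0409), Cdk19 (0.0445) and Med13l (0.0468), and the number of all genes called rose from 1 to 1364.

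The kinase module is built with 1 paralog of each pair, so the ratio of paralogs was read in each library. Per kilobase, the ratio of Cdk19 to Cdk8 was 3.86, 3.26, 4.64 and 4.37 in Ptch 1 to 4. NKP 1 to 3 had 4.25, 3.86 and 4.14, and AKP 1 to 3 had 3.56, 4.07 and 3.31. Cdk19 was thus the more abundant kinase RNA in every library, and the groups overlapped. The ratio of Med12l to Med12 was 0.466, 0.633, 0.654 and 0.773 in Ptch, 0.763, 0.808 and 0.651 in NKP, and 1.02, 0.961 and 0.637 in AKP. AKP 1 and AKP 2 had the highest ratios of Med12l to Med12, and AKP 3 lay among the Ptch libraries. The ratio of Med13l to Med13 was 0.745, 0.614, 0.597 and 0.657 in Ptch, 0.822, 0.665 and 0.712 in NKP, and 0.541, 0.648 and 0.490 in AKP.

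Of the 9 comparisons of these ratios, the groups did not overlap in 1, Med13l to Med13 in AKP against NKP, where the mean log2 ratio of counts was lower in AKP by a difference of -0.39 (exact permutation test, two-sided, p = 0.1, the smallest that 3 against 3 libraries can give). With 4 against 3 libraries the smallest possible p is 0.0571, so none of the 9 tests could reach 0.05. After Benjamini-Hochberg adjustment over the 9 exact tests, p ran from 0.411 to 0.971. The log2 ratio of Med12l to Med12 differed by 0.46 between AKP and Ptch (exact permutation p = 0.171). RSEM divides reads among similar sequences by estimation, so values of close paralogs carry that uncertainty.

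The partners of Mediator at promoters were read from 4 lists. Of 12 RNA polymerase II subunits, 3 rose and 0 fell in AKP against Ptch (Polr2k, Polr2c and Polr2l), where 3.38% of all tested genes rose and 2.30% fell. The median was 0.29, against 0.24 over the 3190 genes outside Mediator with transcripts under 2000 bases. Of the 12 differences 10 were above 0. The 2 below 0 were those of Polr2a (-0.47, edgeR adjusted p = 0.0920) and Polr2b (-0.28, edgeR adjusted p = 0.0629). For both, every AKP library lay below every Ptch library. Polr2k, a small subunit shared by the nuclear RNA polymerases, had the smallest p, at 26.1, 31.2, 27.8 and 28.9 CPM in Ptch 1 to 4 and 39.1, 47.0 and 35.7 CPM in AKP 1 to 3 (log2 fold change 0.51, edgeR adjusted p = 0.0325). The AKP libraries lay above all Ptch libraries. After correction for length and GC content the Polr2k difference was -0.03 (edgeR adjusted p = 0.888), and without AKP 2 it was 0.39 (0.156). Of 31 general transcription factor genes, 1 rose, a share near that of all tested genes, and 0 fell, with a median of 0.01. The gene was Taf13, a TFIID subunit (0.51, edgeR adjusted p = 0.0231; 0.0784 after correction and 0.122 without AKP 2).

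The third list held 16 genes of polymerase pausing and pause release, among them the negative elongation factor genes Nelfa, Nelfb, Nelfcd and Nelfe. Of these 16, 1 fell in AKP against Ptch, where 2.30% of all tested genes fell, and the median was -0.19. The gene was the elongation factor Supt6 (-0.37, edgeR adjusted p = 0.0435; 0.291 after correction and 0.174 without AKP 2). The last list held 10 genes of cohesin, its loader and its regulators Wapl, Pds5a and Pds5b. Cohesin holds loops between enhancers and promoters together with Mediator. Of the 10 genes, 2 fell (Smc1a and Stag1), against the same 2.30%, with a median of -0.16. Both counts are small. Smc1a stood at 139, 134, 126 and 115 CPM in Ptch 1 to 4 and at 99.4, 97.2 and 99.9 CPM in AKP 1 to 3 (-0.38, edgeR adjusted p = 0.0372; 0.132 after correction and 0.145 without AKP 2). Like Med12, Smc1a is X-linked and was highest in Ptch 1 and Ptch 2, and without these it differed by -0.28 (edgeR adjusted p = 0.200). As for Med12, sex, age and cell make-up cannot be told apart in these libraries. Stag2 of the same list was lowest in them, at 60.1 and 66.2 CPM, against 91.0 and 78.0 CPM in Ptch 3 and Ptch 4. The 7 partner genes called are named after their values were seen, beyond the 1 with the smallest p of each list. So are Polr2a and Polr2b in AKP against Ptch.

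None of the partner genes passed in the other comparisons in edgeR. In NKP against Ptch the smallest p of each list belonged to Polr2a (-0.50, edgeR adjusted p = 0.218), Taf4 (-0.43, 0.218; 0.0367 by DESeq2), Larp7 (-0.48, 0.218) and Smc3 (-0.28, 0.237). With age as a covariate Polr2a passed (-0.66, edgeR adjusted p = 0.0252). In AKP against NKP they belonged to Polr2c (0.30, edgeR adjusted p = 0.228), Taf13 (0.35, 0.228), Nelfe (0.49, 0.228) and Stag1 (-0.20, 0.349). Without AKP 1, Nelfe, a subunit of the negative elongation factor, passed in AKP against NKP (0.63, edgeR adjusted p = 0.0230).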

How the data were processed

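Values in the deposited table, 1 for each symbol in each library, were read as RSEM expected counts, rounded to whole numbers by the authors. Per the submitters' processing notes, Trim Galore, STAR and RSEM were used with GRCm38, and the annotation and tool versions were not given in the sources used here. Per the labels' protocols, libraries were made with a TruSeq RNA v2 kit, and strand is not taken to be marked. Genes were kept by filterByExpr (15617), library sizes were scaled by TMM, and groups were compared with edgeR 4.0.16 (quasi-likelihood F test, robust, R 4.3.3) in 1 fit of 10 libraries at a Benjamini-Hochberg adjusted p under 0.05. The SE is the log2 fold change divided by the square root of F. DESeq2 1.42.0, other scalings, filters, covariates, a replicate block, a length and GC correction (lowess, span 0.3, longest GENCODE vM21 transcript) and omission of libraries were alternatives. Leaving out Ptch 1 and Ptch 2 was chosen after seeing the data. Named genes were the kinase module, Med14, every member that passed, the member with the smallest p of each other module and of each partner list, and members whose groups did not overlap, the last added after seeing the data. The Mediator genes and lists were chosen with earlier results of these data known. The labels do not state whether libraries within a group were separate animals, and p-values therefore measure only the spread between libraries, which may be technical. On simulated counts for AKP against Ptch (15410 genes) the fit recovered 92 of 100 genes changed 2-fold and 100 of 100 changed 4-fold, with 5 false calls. The largest Mediator difference, that of Med12 in AKP against Ptch (-0.69 on the log2 scale), was below 2-fold. Recovery of changes under 2-fold was not tested. How recovery depends on the spread between libraries was not tested either.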

Additional observations from a re-analysis of the deposited data

Results flagged for a closer look

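Med14, the scaffold of Mediator, stood apart in 1 library of the Ptch group. Ptch 1 had 33.9 CPM, and the other 3 Ptch libraries had 37.5 to 38.2 CPM. The gap between Ptch 1 and its nearest neighbour was 0.831 of the whole range of the group, just above Dixon's critical value for 4 libraries. The 33 Mediator genes were each tested in this way in the Ptch group, and chance passes this value in about 1 of 20 groups. Ptch 1 is 1 of the 4 libraries against their sex label, and Med14 is X-linked. Ptch 2, which was low in Y-linked genes as well, had 38.2 CPM of Med14. The cause of the low value in Ptch 1 was not tested. Groups of 3 libraries were not tested.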

How the results depend on the processing

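The labels do not say whether the replicate numbers pair the libraries. The correlation of deviations ran from -0.33 to 0.34 over 9 same-numbered pairs and passed 0.1 in 3. It ran from -0.44 to 0.38 over pairs with unlike numbers, a like range, so these values cannot settle whether libraries were paired. With the replicate block, which drops Ptch 4, 0 Mediator genes passed in each comparison. In AKP against Ptch the number that passed was 4, and it was 3 with age as a covariate (edgeR adjusted p 0.0534 for Med25, 0.0600 for Med31 and 0.0331 for Cdk19, which came in), 3 with no filter on low counts (0.0753 for Med31), 1 with the sex label as a covariate, 0 with the replicate block, 0 after length and GC correction, 0 without the 4 libraries against their sex label, 0 without Ptch 1 and Ptch 2, and 0 to 6 with 1 library left out. In NKP against Ptch it was 1 with age as a covariate and 0 with any 1 library left out. In AKP against NKP it was 1 with DESeq2 and 0 to 3 with 1 library left out. Of all tested genes in AKP against Ptch, 887 passed, against 1887 with DESeq2, 231 with the sex label, 14 after length and GC correction, 0 with the replicate block, and 0 to 1459 with 1 library left out. In NKP against Ptch 0 passed, against 415 with DESeq2 and 933 with age, and in AKP against NKP 1, against 175 with DESeq2 and 0 to 1364 with 1 library left out. The block keeps 9 libraries and leaving libraries out keeps fewer too. The cause of the other changes was not tested.

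Of 1257 values under alternatives for 58 gene results, 1114 kept direction and side of the threshold, 90 dropped out of the calls, 19 came in and 34 changed sign, all of these last on uncalled values except Polr2k. In NKP against Ptch, Cdk19 was 0.097 with age, 0.012 with the replicate block and -0.094 to 0.022 with 1 library left out. Med13l was 0.050 with age, 0.031 with the block, 0.038 after length and GC correction and -0.11 to 0.061 with 1 left out. Ccnc was -0.097 after correction, -0.0019 without Ptch 1 and Ptch 2, and -0.11 to 0.21 with 1 left out. Med12l was -0.13 without the 4 libraries, -0.067 without Ptch 1 and Ptch 2, and -0.060 to 0.073 with 1 left out. Cdk8 was -0.082 to 0.013 with 1 left out, and Med27 was 0.026 without Ptch 1 and Ptch 2. In AKP against Ptch after correction, Med12l was 0.024, Med6 -0.035, Med19 -0.0030 and Polr2k -0.034. In AKP against NKP, Ccnc was -0.034 with age, -0.063 without the 4 libraries and -0.051 to 0.26 with 1 left out. After correction Med14 was 0.0046, Med13 0.061, Med11 -0.062 and Kmt2d 0.10, and Med13 was -0.32 to 0.024 with 1 left out. The log2 ratio of Cdk19 to Cdk8 in NKP against Ptch was 0.03, and -0.068 to 0.10 with 1 left out (-0.068 without Ptch 2). Counts of as few as 39 limit the precision for Med18.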
